A study of Mus musculus with 36 samples.

Results

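The neutrophil granule and S100 genes are 10 genes named by symbol, of 38887 gene identifiers in the count table. They were split into 5 primary granule genes (*Mpo*, *Elane*, *Prtn3*, *Ctsg* and *Ms4a3*) and 5 late genes (*S100a8*, *S100a9*, *Ltf*, *Camp* and *Ngp*) and read in all 36 libraries. A symbol was found for 37570 identifiers, which hold 99.6% of all counts, and each of the 10 symbols matched 1 identifier. The genes were named with results of these data already known, so their levels across cell types describe them and do not test how they were chosen.

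A neutrophil makes its granules in a fixed order as it matures. Promyelocytes fill the primary (azurophil) granules with myeloperoxidase and serine proteases, and myelocytes and later cells then make lactoferrin, cathelicidin and the calcium-binding S100 proteins while transcription of the primary genes ceases. Transcripts of primary granule genes are already present in multipotent and granulocyte-monocyte progenitors, whereas late transcripts are abundant in maturing neutrophils and are not part of the stem cell program.

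Total RNA was sequenced from 5000 sorted cells a library, taken from the bone marrow of hyperlipidemic mice in a study of abdominal aortic aneurysm. LT-HSCs gave 17 libraries and HPC-1, named ST-HSC in the labels, gave 19; both were sorted as lineage negative cells with Sca-1 and c-kit, with CD150 and no CD48 for LT-HSCs and the reverse for HPC-1. All mice lacked *Apoe*, were fed WD for 12 weeks from 8 weeks of age, and received PBS or Ang II (800 ng per kg per min) for the last 2 weeks. They carried intact *Il27ra* (*Apoe*-/-, written here as intact), 1 deleted allele (*Apoe*-/-*Il27ra*+/-, heterozygous) or 2 deleted alleles (*Apoe*-/-*Il27ra*-/-, knockout). The LT-HSC groups held 1 intact, 3 heterozygous and 3 knockout libraries after PBS and 2, 4 and 4 after Ang II, and the HPC-1 groups held 2, 3 and 3 after PBS and 3, 4 and 4 after Ang II. Libraries with under 20% exonic reads had been left out by the study. The lineage gate includes Gr1 and CD11b, which mark mature neutrophils and monocytes. It was meant to exclude such cells, and how far it did so was not tested.

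Depth ran from 1980283 to 6861078 counts a library; 25 libraries held under 4000000 counts and 11 held more. Levels are counts per 1000000 (CPM) of a library's own total, given in replicate order within each group. A floor of 3 counts stands at 0.437 to 1.51 CPM, depending on the library, and a gene at 0 could have a level up to that floor. Floors cover counting error only, since the reads carry no molecular identifiers.

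*Il27ra*, which encodes the ligand-binding chain of the IL-27 receptor, was read in every library first. Intact LT-HSCs held 18.2 CPM after PBS and 39.7 and 50.1 after Ang II. Heterozygous LT-HSCs held 40.2, 29.7 and 28.1 CPM after PBS and 29.3, 26.5, 28.6 and 36 after Ang II. Knockout LT-HSCs held 10.1, 6.90 and 17.3 CPM after PBS and 17.7, 11.6, 17.5 and 21.2 after Ang II. All 7 knockout LT-HSC libraries were below all 7 heterozygous ones, and the single intact PBS library lay inside the knockout range. In HPC-1 the gene was lower and the genotypes overlapped. Intact HPC-1 held 7.15 and 11.7 CPM after PBS and 9.66, 8.20 and 6.04 after Ang II. Heterozygous HPC-1 held 14.0, 10.96 and 9.95 CPM after PBS and 4.58, 8.94, 14.5 and 16.1 after Ang II, and knockout HPC-1 held 6.61, 11.1 and 8.49 after PBS and 6.53, 5.95, 4.30 and 8.83 after Ang II.

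Across LT-HSC libraries, 3 stood apart in the granule genes, each from a knockout mouse. Summed over the 5 primary genes, PBS knockout replicate 2 held 3967 CPM, PBS knockout replicate 3 held 214 and Ang II knockout replicate 2 held 1445, against 23.7 to 81.3 in the other 14 LT-HSC libraries. Summed over the 5 late genes, the same 3 libraries held 17.5, 1222 and 6742 CPM, against 1.11 to 69.6 in the other 14. PBS knockout replicate 2 was thus high in primary genes alone, and the other pair was high in both classes with more late than primary transcript.

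The sort markers and other granule genes also differed in these 3 libraries. In PBS knockout replicate 2, *Slamf1*, which encodes CD150, stood at 2.35 CPM and *Cd48* at 62.3, inside the HPC-1 ranges of 0 to 8.19 and 38.1 to 86.7 and outside the ranges of 20.7 to 81.0 and 0 to 8.19 in the other 16 LT-HSC libraries. Its summed LT-HSC markers were 551 CPM, against 324 to 696 in HPC-1 and 1501 to 3588 in the other LT-HSC libraries. In PBS knockout replicate 3, *Slamf1* was at 46.7, *Cd48* at 4.41 and the summed LT-HSC markers at 2723 CPM, and in Ang II knockout replicate 2 they were at 20.7, 8.19 and 1501. The 14 others held 21.2 to 81.0, 0 to 2.04 and 1954 to 3588 CPM, so *Cd48* was above that range in both libraries, and *Slamf1* and the marker sum were below it in Ang II knockout replicate 2. Ang II knockout replicate 2 held 1652 CPM of *Lyz2* (lysozyme), 695 of *Lcn2* (lipocalin 2, a late granule protein), 313 of *Itgam* (CD11b) and 6.89 of *Ly6g* (the neutrophil antigen bound by Gr1 antibodies). PBS knockout replicate 3 held 334 CPM of *Lyz2*, 129 of *Lcn2*, 60.2 of *Itgam* and 2.13 of *Ly6g*. Erythroid transcripts were high in this pair as well, with sums of 3284 and 3806 CPM led by *Hba-a2* (993 and 1396), against 301 to 1597 in the 14 others. The cell type comparison, its gene lists, the LT-HSC comparisons and the correlations are given with and without these libraries, and the part of other cell types in their granule transcripts was not tested.

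**Figure D1:**
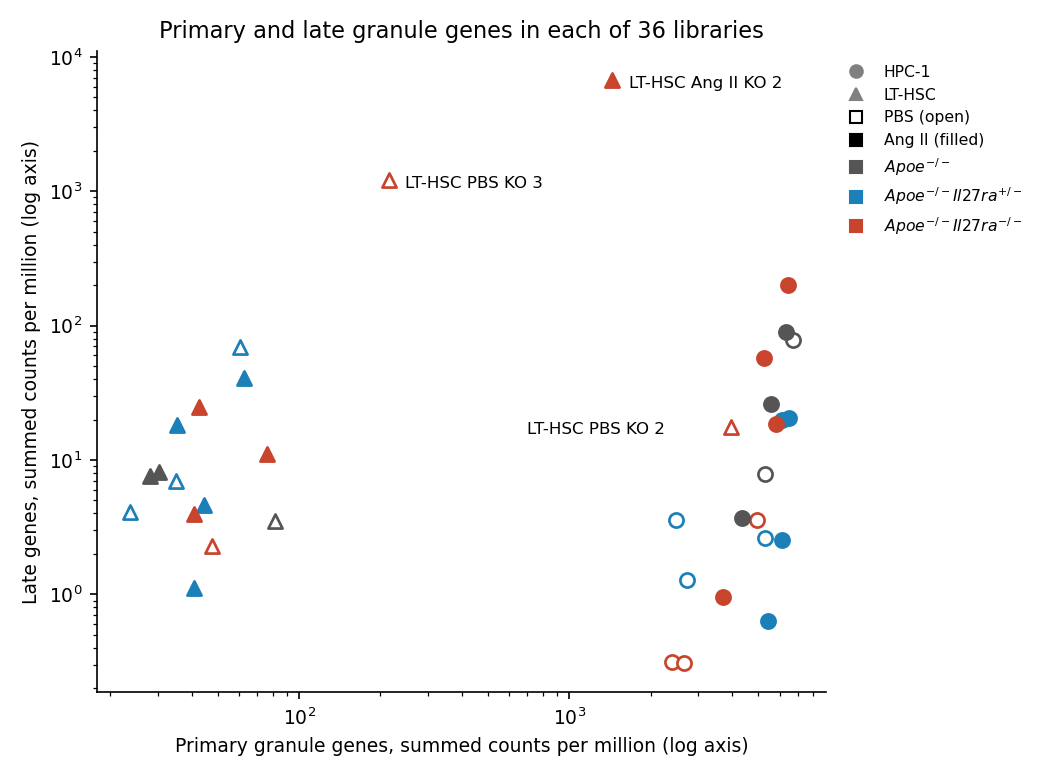
Each point is 1 of 36 libraries, with the summed level of the 5 primary granule genes on the horizontal axis and of the 5 late genes on the vertical axis (both CPM, log scales), by cell type, agent and genotype. HPC-1 libraries lie at 2405 to 6730 CPM of primary transcript, and 3 knockout LT-HSC libraries lie away from the other 14.

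Primary granule genes were higher in HPC-1 than in most LT-HSC libraries, and late genes overlapped. Of the 17 LT-HSC libraries, 16 lay below all 19 HPC-1 libraries for *Mpo* and *Ctsg*, 15 for *Prtn3* and *Ms4a3* and 14 for *Elane*, so with all 17 each primary gene overlapped (of 18013 genes tested, 0.0167% were above and 0.0833% below all 17). The 3 libraries above had been set aside for their levels of these same genes, so the lack of overlap of the 5 primary genes with the other 14 is a description and no test (1.23% of 17853 genes were above and 2.62% below all 14). The summed primary genes had a lowest, median and highest value of 2405, 5293 and 6730 CPM in HPC-1 and 23.7, 41.8 and 81.3 CPM in those 14 LT-HSC libraries. The summed late genes had values of 0.307, 3.70 and 201 CPM in HPC-1 and 1.11, 7.30 and 69.6 CPM in the 14. In bulk RNA, fewer cells of a type and less RNA per cell cannot be told apart.

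*Mpo* encodes myeloperoxidase, which makes hypochlorous acid in the primary granule. *Mpo* in PBS LT-HSCs was 30.8 CPM in the intact library, 0.456, 4.30 and 5.31 in the heterozygous libraries and 13.8, 3505 and 109.9 in the knockout libraries. *Mpo* in Ang II LT-HSCs was 1.34 and 4.33 CPM in the intact libraries, 4.58, 3.11, 2.88 and 0.729 in the heterozygous libraries and 10.9, 1108, 1.105 and 22.1 in the knockout libraries. Outside the 3 libraries that stood apart, the highest LT-HSC value was that of the intact PBS library, and no Ang II library exceeded it. *Mpo* in PBS HPC-1 was 4759 and 5884 CPM in the intact libraries, 2249.5, 2459.7 and 4713 in the heterozygous libraries and 2179, 2434 and 4419 in the knockout libraries. *Mpo* in Ang II HPC-1 was 3911, 4957 and 5608 CPM in the intact libraries, 5089, 5347, 5744 and 4703 in the heterozygous libraries and 5088, 4540.3, 5596 and 3282 in the knockout libraries. The cell types sat in separate ranges, except that PBS knockout LT-HSC replicate 2 lay inside the HPC-1 range. The HPC-1 median of 4713 CPM was 1029-fold the median over 17 LT-HSC libraries (4.58 CPM) and 1093-fold that over the 14 (4.31 CPM).

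*Elane*, *Prtn3* and *Ctsg* encode the serine proteases neutrophil elastase, proteinase 3 and cathepsin G. *Elane* in PBS LT-HSCs was 0 CPM in the intact library, 0, 0 and 0.949 in the heterozygous libraries and 1.38, 89.3 and 27.2 in the knockout libraries. *Elane* in Ang II LT-HSCs was 0 and 0 CPM in the intact libraries, 0, 0, 0.443 and 0.146 in the heterozygous libraries and 0, 152, 0.221 and 1.36 in the knockout libraries. Outside the 3 libraries that stood apart, *Elane* was at 0 in 8 of 14 LT-HSC libraries and at most 1.38 CPM. *Elane* in PBS HPC-1 was 94.3 and 210.4 CPM in the intact libraries, 34.8, 44.8 and 109 in the heterozygous libraries and 25.2, 41.5 and 119.8 in the knockout libraries. *Elane* in Ang II HPC-1 was 73.9, 123 and 142 CPM in the intact libraries, 249, 183, 258 and 107 in the heterozygous libraries and 214, 184, 229 and 59.1 in the knockout libraries. Every HPC-1 library held *Elane*, and the heterozygous and knockout PBS libraries of replicates 1 and 2 were the lowest. The HPC-1 median of 119.8 CPM was at least 102-fold the LT-HSC median, which lay under the floor with all 17 libraries, and at least 101-fold without the 3.

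*Prtn3* was the 1 primary gene above the floor in every LT-HSC library. *Prtn3* in PBS LT-HSCs was 50.5 CPM in the intact library, 23.3, 28.9 and 53.1 in the heterozygous libraries and 32.3, 203 and 69.0 in the knockout libraries. *Prtn3* in Ang II LT-HSCs was 26.7 and 26.0 CPM in the intact libraries, 30.7, 58.4, 36.8 and 43.6 in the heterozygous libraries and 31.4, 115, 39.1 and 51.8 in the knockout libraries. Its LT-HSC values outside the 3 libraries ran from 23.3 to 58.4 CPM with overlapping groups. *Prtn3* in PBS HPC-1 was 193 and 275 CPM in the intact libraries, 74.4, 84.4 and 229 in the heterozygous libraries and 82.2, 89.4 and 234 in the knockout libraries. *Prtn3* in Ang II HPC-1 was 168, 202 and 335 CPM in the intact libraries, 280.3, 249, 261 and 345 in the heterozygous libraries and 204, 244, 244 and 188 in the knockout libraries. The HPC-1 values began at 74.4 CPM, in the heterozygous PBS group. Its HPC-1 median of 229 CPM was 5.85-fold the median over 17 LT-HSC libraries (39.1 CPM) and 6.63-fold that over the 14 (34.5 CPM).

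*Ctsg* was near 0 in LT-HSCs. *Ctsg* in PBS LT-HSCs was 0 CPM in the intact library, 0, 0.390 and 0.379 in the heterozygous libraries and 0, 159 and 6.38 in the knockout libraries. *Ctsg* in Ang II LT-HSCs was 0 and 0 CPM in the intact libraries, 0, 0.389, 0 and 0 in the heterozygous libraries and 0, 55.2, 0 and 0.604 in the knockout libraries. Outside the 3 libraries, the highest value was 0.604 CPM. *Ctsg* in PBS HPC-1 was 217 and 326 CPM in the intact libraries, 116, 121 and 218 in the heterozygous libraries and 116, 96.2 and 185 in the knockout libraries. *Ctsg* in Ang II HPC-1 was 209, 285 and 247 CPM in the intact libraries, 474, 317, 235 and 254 in the heterozygous libraries and 295, 267, 325 and 175 in the knockout libraries. All HPC-1 values were above 90 CPM, and no LT-HSC library other than PBS knockout replicate 2 reached that level. Its HPC-1 median of 235 CPM was at least 201-fold the LT-HSC median of 0 over 17 libraries and at least 198-fold over the 14.

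*Ms4a3* encodes a membrane protein of granulocyte-monocyte progenitors and their early descendants. *Ms4a3* in PBS LT-HSCs was 0 CPM in the intact library, 0, 1.56 and 0.759 in the heterozygous libraries and 0, 10.7 and 1.98 in the knockout libraries. *Ms4a3* in Ang II LT-HSCs was 0 and 0 CPM in the intact libraries, 0, 0.779, 0.886 and 0 in the heterozygous libraries and 0.402, 15.1, 0.442 and 0.453 in the knockout libraries. Outside the 3 libraries, the highest value was 1.56 CPM. *Ms4a3* in PBS HPC-1 was 29.3 and 34.0 CPM in the intact libraries, 5.06, 6.12 and 15.4 in the heterozygous libraries and 3.15, 5.53 and 15.4 in the knockout libraries. *Ms4a3* in Ang II HPC-1 was 12.8, 32.8 and 25.4 CPM in the intact libraries, 38.2, 17.03, 27.7 and 14.9 in the heterozygous libraries and 28.7, 23.8, 49.97 and 8.06 in the knockout libraries. HPC-1 libraries had from 3.15 to 49.97 CPM, and the 2 LT-HSC libraries above 3 CPM were PBS knockout replicate 2 and Ang II knockout replicate 2. Its HPC-1 median of 17.03 CPM was at least 14.5-fold the LT-HSC median over 17 libraries and at least 14.3-fold over the 14, both under the floor.

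All 5 primary genes were higher in HPC-1 by edgeR at an FDR of 5%. The comparison averaged the HPC-1 minus LT-HSC difference over the 5 agent and genotype conditions with at least 2 libraries in both cell types, and the single intact PBS LT-HSC library entered the fit but not the contrast. Of 18013 genes tested, 6543 (36.3%) were called, and the median log2 fold change over all of them was −0.03. The log2 fold change was 7.44 for *Mpo* (SE 0.925, adjusted p = 5.29e-07) and 7.90 for *Ctsg* (SE 0.957, adjusted p = 4.73e-07). It was 6.35 for *Elane* (SE 0.971, adjusted p = 1.17e-05), 2.09 for *Prtn3* (SE 0.258, adjusted p = 4.39e-07) and 4.60 for *Ms4a3* (SE 0.705, adjusted p = 1.00e-05). In each of the 5, all 19 HPC-1 libraries were above the median of the 17 LT-HSC libraries. DESeq2 also called all 5, with its share of all genes called not given.

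Leaving out the 3 LT-HSC libraries, a choice made after the data were seen, raised 4 of these 5 values by over 1.5 log2 units and *Prtn3* by less. The 3 had been set aside for their levels of these same genes, so the values without them are a description and no test. Of 17853 genes tested then, 35.6% were called. The log2 fold change was 9.66 for *Mpo* (SE 0.536), 8.44 for *Elane* (SE 0.649) and 11.05 for *Ctsg* (SE 0.435). For *Prtn3* it was 2.52 (SE 0.238) and for *Ms4a3* 6.57 (SE 0.626). With cell type as the only term, where 51.3% of 11904 genes were called, the values were 3.98 for *Mpo*, 3.04 for *Elane*, 2.01 for *Prtn3*, 4.09 for *Ctsg* and 3.39 for *Ms4a3*, and each was called. Fitted fold changes of *Elane*, *Ctsg* and *Ms4a3*, which were at or near 0 in most LT-HSC libraries, depend on the prior count and are not bounds.

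The late genes begin with calprotectin. *S100a8* and *S100a9* encode its 2 subunits, which bind calcium and zinc and make up much of the cytosolic protein of neutrophils. *S100a8* in PBS LT-HSCs was 3.53 CPM in the intact library, 0.456, 0.390 and 9.30 in the heterozygous libraries and 0, 1.32 and 99.7 in the knockout libraries. *S100a8* in Ang II LT-HSCs was 0 and 0 CPM in the intact libraries, 2.29, 0.389, 0 and 0.146 in the heterozygous libraries and 1.61, 579.5, 0 and 0.302 in the knockout libraries. Only PBS knockout replicate 3 and Ang II knockout replicate 2 exceeded 10 CPM. *S100a8* in PBS HPC-1 was 0.681 and 7.56 CPM in the intact libraries, 0.298, 0 and 0.813 in the heterozygous libraries and 0, 0 and 0.447 in the knockout libraries. *S100a8* in Ang II HPC-1 was 0, 2.34 and 5.17 CPM in the intact libraries, 0.764, 0.426, 1.32 and 0 in the heterozygous libraries and 1.42, 1.05, 21.0 and 0 in the knockout libraries. In HPC-1 the gene was at 0 in 6 of 19 libraries, and the highest value was that of Ang II knockout replicate 3. Both medians lay under the floor, so no fold is given.

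*S100a9* had the same 2 high LT-HSC libraries. *S100a9* in PBS LT-HSCs was 0 CPM in the intact library, 1.83, 1.56 and 23.3 in the heterozygous libraries and 0.461, 3.97 and 343 in the knockout libraries. *S100a9* in Ang II LT-HSCs was 7.57 and 8.18 CPM in the intact libraries, 10.99, 8.57, 0.222 and 2.33 in the heterozygous libraries and 12.1, 2179, 0.442 and 3.93 in the knockout libraries. Heterozygous PBS replicate 3 came next, and the other LT-HSC libraries were at 12.1 CPM or lower. *S100a9* in PBS HPC-1 was 2.72 and 18.9 CPM in the intact libraries, 0.298, 0 and 0.609 in the heterozygous libraries and 0.315, 0.307 and 1.79 in the knockout libraries. *S100a9* in Ang II HPC-1 was 0.569, 5.27 and 34.1 CPM in the intact libraries, 8.02, 1.28, 9.68 and 0 in the heterozygous libraries and 7.66, 26.2, 76.8 and 0 in the knockout libraries. HPC-1 values spread from 0 to 76.8 CPM within the Ang II knockout group alone, and all groups overlapped the LT-HSC range. The medians were 1.79 CPM in HPC-1, 3.97 over 17 LT-HSC libraries and 3.13 over the 14.

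*Ltf* encodes lactoferrin, the iron-binding protein of secondary granules. *Ltf* in PBS LT-HSCs was 0 CPM in the intact library, 0, 0.390 and 13.1 in the heterozygous libraries and 1.38, 4.85 and 309 in the knockout libraries. *Ltf* in Ang II LT-HSCs was 0 and 0 CPM in the intact libraries, 3.66, 13.2, 0 and 0.729 in the heterozygous libraries and 2.41, 1591, 0 and 3.78 in the knockout libraries. Beside the 2 high libraries, heterozygous libraries of each agent reached 13.1 and 13.2 CPM. *Ltf* in PBS HPC-1 was 2.04 and 15.1 CPM in the intact libraries, 2.08, 0 and 0.406 in the heterozygous libraries and 0, 0 and 0.223 in the knockout libraries. *Ltf* in Ang II HPC-1 was 1.14, 8.20 and 37.5 CPM in the intact libraries, 6.49, 0.851, 7.92 and 0.633 in the heterozygous libraries and 4.26, 5.5997, 40.8 and 0.959 in the knockout libraries. The HPC-1 libraries above 10 CPM were intact PBS replicate 2, intact Ang II replicate 3 and Ang II knockout replicate 3. The medians were 2.04 CPM in HPC-1, 1.38 over 17 LT-HSC libraries and 0.560 over the 14.

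*Camp* encodes the cathelicidin antimicrobial peptide, stored in secondary granules. *Camp* in PBS LT-HSCs was 0 CPM in the intact library, 0, 0.390 and 2.09 in the heterozygous libraries and 0.461, 0.588 and 58.2 in the knockout libraries. *Camp* in Ang II LT-HSCs was 0 and 0 CPM in the intact libraries, 0, 1.56, 0 and 0.146 in the heterozygous libraries and 0.402, 282, 0 and 0.302 in the knockout libraries. It was at most 2.09 CPM outside the 2 high libraries. *Camp* in PBS HPC-1 was 0.340 and 8.94 CPM in the intact libraries, 0, 0.322 and 0.406 in the heterozygous libraries and 0, 0 and 0 in the knockout libraries. *Camp* in Ang II HPC-1 was 0, 2.05 and 5.605 CPM in the intact libraries, 0, 0, 0 and 0 in the heterozygous libraries and 0.568, 1.75, 8.33 and 0 in the knockout libraries. It was at 0 in all 4 heterozygous Ang II libraries and all 3 knockout PBS libraries of HPC-1. Both medians lay under the floor, and no fold is given.

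*Ngp* encodes neutrophilic granule protein, a cathelicidin-related protein of secondary granules. *Ngp* in PBS LT-HSCs was 0 CPM in the intact library, 1.83, 4.30 and 21.8 in the heterozygous libraries and 0, 6.76 and 412 in the knockout libraries. *Ngp* in Ang II LT-HSCs was 0 and 0 CPM in the intact libraries, 1.37, 17.1, 0.886 and 1.31 in the heterozygous libraries and 8.44, 2111, 3.53 and 2.72 in the knockout libraries. The 2 high libraries were again PBS knockout replicate 3 and Ang II knockout replicate 2. *Ngp* in PBS HPC-1 was 2.04 and 27.8 CPM in the intact libraries, 0.893, 0.967 and 0.406 in the heterozygous libraries and 0, 0 and 1.12 in the knockout libraries. *Ngp* in Ang II HPC-1 was 1.99, 8.20 and 7.33 CPM in the intact libraries, 4.58, 0, 1.76 and 0 in the heterozygous libraries and 4.54, 22.4, 54.0 and 0 in the knockout libraries. In HPC-1 it was above 20 CPM in intact PBS replicate 2 and in Ang II knockout replicates 2 and 3. The medians were 1.76 CPM in HPC-1, 2.72 over 17 LT-HSC libraries and 1.60 over the 14.

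Of the late genes, edgeR called *S100a9* between cell types, and that call was lost on leaving out any 1 of 23 of the 33 libraries tried. Its log2 fold change in HPC-1 was −3.03 (SE 1.19, adjusted p = 0.0497), with 11 of 19 HPC-1 libraries below the LT-HSC median. These were 9 LT-HSC libraries (PBS heterozygous replicates 1 and 3, PBS knockout replicate 3, Ang II intact replicates 1 and 2, Ang II heterozygous replicates 1, 2 and 4 and Ang II knockout replicate 2) and 14 HPC-1 libraries (PBS heterozygous and knockout replicates 1 to 3, Ang II intact replicates 1 and 2 and Ang II heterozygous and knockout replicates 1, 2 and 4). The values nearest 0 were −1.64 (adjusted p = 0.182) without Ang II knockout replicate 2 of LT-HSCs and −1.97 (adjusted p = 0.227) without PBS knockout replicate 3. Without the 3 libraries that stood apart it was −0.10 (adjusted p = 1). Over 46 alternatives the gene was called in 16, with values from −4.03 to 0.87 and adjusted p up to 1. With cell type as the only term, *S100a9* (−3.93, adjusted p = 0.00262), *Ltf* (−4.07, adjusted p = 0.00230) and *Ngp* (−4.40, adjusted p = 0.00123) were called as lower, and the same fit without the 3 libraries gave 0.87 for *S100a9* (adjusted p = 0.380). For *S100a8*, *Ltf*, *Camp* and *Ngp* the averaged contrast gave no usable error with all libraries, for a reason that was not tested, and DESeq2 gave no adjusted p for the 5 late genes. Without the 3 libraries it was 1.85 for *S100a8* (SE 1.27, adjusted p = 0.294), 1.15 for *Ltf* (SE 1.52, adjusted p = 0.672) and 1.65 for *Ngp* (SE 1.63, adjusted p = 0.521), none called, and *Camp* still had no usable error. The 3 had been set aside for their levels of granule genes, so the values given here without them are descriptions and no tests.

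**Figure D2:**
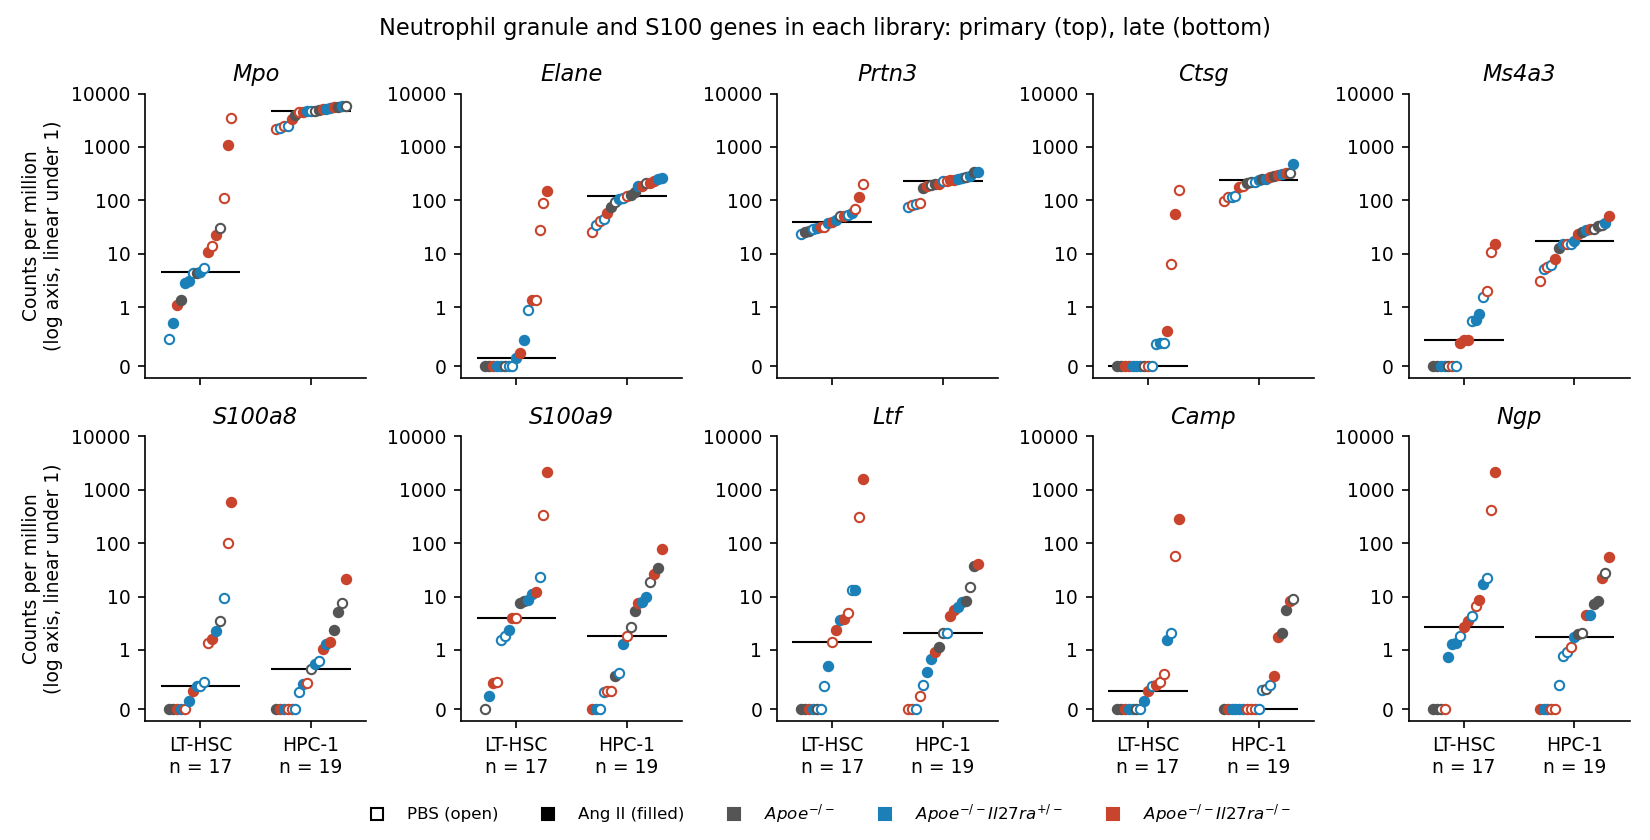
Levels of the 5 primary (top) and 5 late (bottom) granule genes in each library (CPM, log scale with 0 shown), with 1 point a library in LT-HSCs (n = 17) and HPC-1 (n = 19). For each primary gene, all but 1 to 3 LT-HSC libraries lie below all HPC-1 libraries, and the late genes overlap.

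Per kilobase of annotated exon, *Mpo* led in HPC-1 with a median of 1376 CPM per kb, in 19 of 19 libraries. *Ctsg* followed at 228 CPM per kb, above *Prtn3* at 132 in 19 of 19 libraries, and *Ms4a3* was lowest at 9.04. *Prtn3* and *Elane* (122 CPM per kb) did not hold their order, with *Prtn3* higher in 11 of 19 libraries. The order was different in the 14 LT-HSC libraries, where *Prtn3* led at 19.9 CPM per kb, above *Mpo* at 1.26 in 14 of 14, and *Elane* and *Ctsg* had medians of 0. In the 3 libraries that stood apart the late order was *S100a9* at 657 CPM per kb, *Ngp* at 337, *S100a8* at 144, *Ltf* at 89.6 and *Camp* at 76.8, and each step held in 3 of 3. In HPC-1 the late medians ran from 3.42 CPM per kb for *S100a9* to 0 for *Camp*, and each step of that order held in 8 to 14 of 19 libraries. *Mpo* overlaps *Gm11505* and *Prtn3* overlaps *Plppr3* in the annotation, so reads could be split between the genes of each pair and these levels are uncertain to that extent.

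Other genes of the 2 granule classes gave calls in both directions or few calls between HPC-1 and LT-HSCs. Medians of lists are over genes whose edgeR fit had a usable error. Over all genes tested 36.3% were called, and 35.6% without the 3 LT-HSC libraries. Of 11 other primary granule genes, 7 had such a fit (*Fcnb* and *Ear2* were fitted without one), 2 were higher in HPC-1 (*Serpinb1a*, an inhibitor of granule proteases, log2 fold change 1.66, and *Gusb*, 0.74) and 2 lower (*Ctsc*, which activates granule proteases, −0.34, and *Cd63*, a granule membrane protein, −0.68), with a list median of 0.04. Their most abundant gene was *Srgn* (serglycin), and their sum was 603 to 937 CPM in HPC-1 and 545 to 724 in the 14 LT-HSC libraries. Of 20 other late granule genes, 14 had a usable error (*Lcn2*, *Olfm4*, *Ly6g*, *Wfdc21*, *Lrg1* and *Fpr1* did not), 2 were higher (*Hp*, haptoglobin, 3.71, and *Slpi*, a protease inhibitor, 2.08) and the list median was −0.02. Without the 3 LT-HSC libraries 7 of these late genes were higher and 0 lower (*Mmp8*, *Cybb*, *Itgam*, *Hp*, *Anxa1*, *Slpi* and *Cxcr2*), with a median of 1.40 over 14 genes. The 3 had been set aside for their levels of granule genes, so list counts without them are a description and no test. Their sum was 148 to 320 CPM in HPC-1, led by *Anxa1* (annexin A1), and 77.1 to 180 in the 14, led by *Padi4*. Of 12 granulocyte regulators, 8 were higher and 0 lower, with a median of 1.33, and the largest changes were those of *Cebpa* (4.26), *Irf8* (4.08), *Cebpd* (2.22) and *Csf2rb* (2.09), which encode 3 myeloid transcription factors and a cytokine receptor chain. Their sum, led by *Myb*, was 1702 to 2877 CPM in HPC-1 and 1160 to 1671 in the 14. Without the 3 libraries 9 regulators were higher, with *Cebpe* added, and the calls among other primary granule genes were the same 4.

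The remaining lists place these levels beside the sort gate and other lineages. Of 6 surface marker genes of stem and progenitor cells, *Cd48* (5.92), *Flt3* (2.93) and *Cd34* (2.28) were higher and *Slamf1* (−3.97), *Ly6a* (Sca-1, −1.33) and *Kit* (−0.30) lower. The products of *Flt3* and *Cd34* were not used to sort these 2 cell types. All 15 LT-HSC markers were lower in HPC-1 (median −3.03) and 10 of 11 HPC-1 markers were higher (median 2.93; 11 without the 3 libraries). Of 10 monocyte and macrophage genes, 5 were higher, among them *F13a1* (coagulation factor XIII, 5.92), *Ccr2* (a chemokine receptor, 4.29), *Ly6c2* (3.86) and *Csf1r* (3.51), and the other 5 had negative values and were not called (*C1qa*, *C1qb*, *Cd14*, *Vcan* and *Adgre1*). The sum of the 10 was 131 to 676 CPM in HPC-1 and 4.81 to 46.5 in the 14. Of 8 eosinophil, mast cell and basophil genes, 5 had a usable error, 3 were higher (*Ms4a2*, 4.94, *Mcpt8*, 3.94, and *Cpa3*, 3.44) and *Gata2* was lower (−1.41). Of 9 erythroid genes 6 were lower (without the 3 libraries *Car2* alone was lower and *Ermap* higher), and of 7 megakaryocyte and platelet genes all 7 were lower. Of 3 T and NK cell genes with a usable error 2 were higher and 1 lower, and of 8 such intestinal epithelium genes 4 were lower (*Epcam*, −2.24, *Krt8*, −1.89, *Cldn7*, −1.81, and *Krt18*, −1.25, with *Cldn7* not called without the 3 libraries). Of 1 B cell gene and 4 Y-linked genes with a usable error none was called. Over all genes 36.3% were called, and the part of monocytes in the difference of the primary genes was not tested.

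Within LT-HSCs, edgeR called 0 of the 10 members in each of 7 comparisons over 16365 genes tested. Ang II against PBS called 0% of genes in heterozygous mice (806 at an unadjusted p under 0.05) and 0% in knockout mice (150 genes), with 0 members at that level in either. Among Ang II libraries, 1.69% of genes were called for knockout against intact, with 2896 genes and 1 member at an unadjusted p under 0.05. Heterozygous against intact called 0.831% of genes (2563 at that level), with 0 members at that level, and knockout against heterozygous called 0% (426 genes), with 8 members at that level. After PBS, knockout against heterozygous called 0% (653 genes), with 4 members at that level. The Ang II effect in knockout mice minus that in heterozygous mice called 0% (414 genes), with 0 members at that level. Both intact Ang II libraries were high in the Y-linked genes, at 2244419 and 2077699 total counts. Heterozygous and knockout Ang II replicates 1 and 2 were alike (2183648 to 2568392 counts). Replicates 3 and 4 of each were low in these genes and deeper (4512346 to 6861078 counts). Comparisons with intact mice thus differ in depth and Y-linked class, and the part of either in the calls was not tested.

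DESeq2 called members in 3 of these LT-HSC comparisons, and it gave no p for the 5 late genes in any of the 7, so only the primary genes could be called. It called *Mpo*, *Elane* and *Ctsg* for Ang II knockout against intact, with *Mpo* at a log2 fold change of 6.63 (adjusted p = 0.0236), above both intact libraries in 3 of 4 knockout libraries. It called *Elane* for Ang II heterozygous against intact (adjusted p = 0.0105), although *Elane* was at 0 in both intact and in 2 of 4 heterozygous libraries, so no fold is given. It called *Mpo* for PBS knockout against heterozygous, at 8.59 (adjusted p = 0.0424), with 3 of 3 knockout libraries above all 3 heterozygous ones. Both knockout groups in these comparisons hold libraries that stood apart. Without those libraries, the DESeq2 values of *Mpo* were 1.77 (Ang II knockout against intact) and 2.07 (PBS knockout against heterozygous). The share of all genes that DESeq2 called is not given, so its member counts cannot be set against one. In a simulated set of HPC-1 counts, both tools made a larger share of false calls than the nominal FDR, DESeq2 more than edgeR. That set held no libraries that stood apart, so it cannot show how DESeq2 performs in these LT-HSC comparisons. The DESeq2 calls against intact mice also compare libraries that differ in depth and Y-linked class, as given above.

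Without the 3 libraries, a choice made after the data were seen, neither edgeR nor DESeq2 called a member in any of the 7 LT-HSC comparisons. The 3, all from knockout mice, had been set aside for high levels of the members, so this lack of calls is a description and no test. Of 15881 genes tested edgeR called 0% (734 at an unadjusted p under 0.05, 0 members) for Ang II against PBS in heterozygous mice and 0.0063% (217 genes, 0 members at that level) in knockout mice. It called 3.92% for Ang II knockout against intact (3218 genes), 1.84% for heterozygous against intact (2833 genes) and 0% (378 genes) for knockout against heterozygous, with 1 member at that level in each. After PBS, where the knockout group was left with 1 library, knockout against heterozygous called 0.0063% (360 genes, 1 member at that level), and the Ang II effect in knockout minus heterozygous mice called 0.0063% (240 genes, 0 members). *Mpo* was then 1.81 (SE 1.07, adjusted p = 0.361) by edgeR and 1.77 (adjusted p = 0.339) by DESeq2 for Ang II knockout against intact, with 3 and 2 libraries, and 2.02 (SE 1.13, adjusted p = 1) and 2.07 (adjusted p = 1) for PBS knockout against heterozygous, with 1 and 3 libraries. *Elane*, *Ctsg*, *Ms4a3* and *Camp* did not pass the filter without the 3, so they could not be called. For intact mice, Ang II against PBS had 1 PBS library and no test, with *Mpo* at 30.8 CPM after PBS against 1.34 and 4.33 after Ang II. Knockout and heterozygous against intact differ in depth and Y-linked class here as well.

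Within HPC-1, edgeR called 0 of the 10 members in each of 11 comparisons over 13199 genes tested, and DESeq2 called 0 in each (without an adjusted p for *S100a8* and *Camp* in PBS knockout against intact). Ang II against PBS called 0% of genes in intact mice (420 at an unadjusted p under 0.05, 0 members), 0% in heterozygous mice (519 genes, 5 members) and 0% in knockout mice (244 genes, 9 members). After Ang II, knockout against intact called 0% (661 genes, 0 members), heterozygous against intact 0% (975 genes, 1 member) and knockout against heterozygous 0% (375 genes, 3 members). After PBS, knockout against intact called 0.0152% (865 genes and 7 members at an unadjusted p under 0.05), heterozygous against intact 0% (631 genes, 5 members) and knockout against heterozygous 0% (151 genes, 0 members). The Ang II effect in knockout minus heterozygous mice called 0% (169 genes, 1 member), and in knockout minus intact mice 0% (451 genes, 7 members).

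The HPC-1 libraries of heterozygous and knockout mice fell into 2 depth classes. After PBS each primary gene was higher in the libraries over 4000000 counts than in those under it. After Ang II that order was seen for *Prtn3* alone in heterozygous mice and for no primary gene in knockout mice. Those over 4000000 counts were PBS heterozygous replicate 3 (4922800 counts), PBS knockout replicate 3 (4475778), Ang II heterozygous replicate 4 (6318379) and Ang II knockout replicate 4 (5212330). They were also the HPC-1 libraries at 0 for the Y-linked genes, so depth and that class cannot be told apart in HPC-1. All intact HPC-1 libraries held Y-linked transcript and were under 4000000 counts. With all libraries kept, comparisons with intact mice therefore differ in this class as well. The split at that depth had been planned for HPC-1 against LT-HSC alone and was applied within HPC-1 after these libraries had been seen to differ in these genes. It leaves out 2 PBS libraries with higher values, so the calls under this limit are conditioned on the outcome, describe the chosen libraries and are no test of Ang II or genotype, and adjusted p values are not given for them. With all libraries, edgeR called 0 members in every HPC-1 comparison, and *Mpo* for Ang II against PBS was 0.78 in heterozygous and 0.67 in knockout mice (adjusted p = 1 in both, 7 libraries each; unadjusted p = 0.00402 and 0.0112).

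Among the libraries under 4000000 counts, every primary gene was higher in the 6 Ang II libraries of heterozygous and knockout mice than in the 4 PBS libraries, with no overlap. Of 12872 genes tested, 1.28% were above in all 6 and 0.979% below, and *S100a8* and *S100a9* were among those above by CPM. Their lowest Ang II library lay under the floor of 3 counts for *S100a8* and at it for *S100a9*, so neither is shown to be above. *Mpo* stood at 2249.5 and 2459.7 CPM in heterozygous and 2179 and 2434 in knockout PBS libraries, against 5089, 5347 and 5744 and 5088, 4540.3 and 5596 after Ang II. *Elane* stood at 34.8, 44.8, 25.2 and 41.5 CPM after PBS, against 249, 183 and 258 and 214, 184 and 229 after Ang II. In the libraries over 4000000 counts, *Mpo* was at 4713 and 4419 CPM after PBS and 4703 and 3282 after Ang II, and *Elane* was at 109 and 119.8 after PBS and 107 and 59.1 after Ang II. The PBS libraries over 4000000 counts were thus above the PBS libraries under it for both genes. With all depths kept, the 4 heterozygous Ang II libraries were above the 3 PBS ones for *Ctsg* and *Prtn3* alone of the members. Of 13199 genes, 1.65% were above there and 2.53% below.

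With both genotypes averaged, edgeR called all 5 primary genes for Ang II against PBS under 4000000 counts. Of 14933 genes tested, 59 (0.395%) were called. The log2 fold change was 1.198 for *Mpo* (SE 0.116), 2.63 for *Elane* (SE 0.228) and 1.61 for *Prtn3* (SE 0.168). It was 1.55 for *Ctsg* (SE 0.194) and 2.68 for *Ms4a3* (SE 0.388), and each of the 5 was higher in 6 of 6 Ang II libraries. All 5 were called in 14 of 14 alternatives, with ranges of 1.15 to 1.24 for *Mpo*, 2.48 to 2.82 for *Elane*, 1.56 to 1.65 for *Prtn3*, 1.36 to 1.68 for *Ctsg* and 2.48 to 2.90 for *Ms4a3*. All 14 keep the same split, which was conditioned on the outcome, so these calls and their stability are no test of Ang II. Of the 5 late genes edgeR called 0, with 4 at an unadjusted p under 0.05 (*S100a8*, *S100a9*, *Ltf* and *Ngp*), and DESeq2 called 3 (*S100a9*, *Ltf* and *Ngp*). The share of all genes that DESeq2 called there is not given, so its count is no result about the members.

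Over 4000000 counts, Ang II against PBS rested on 1 library a group, whose spread was taken from the other groups. There edgeR called 0% of genes (48 at an unadjusted p under 0.05) and 0 of 10 members, with 0 at that level and 0 by DESeq2. The log2 fold change was −0.17 for *Mpo* (SE 0.172) and −0.48 for *Elane* (SE 0.313). For the effect under minus the effect over 4000000 counts, 0.0469% of genes were called. It was 1.37 for *Mpo* (SE 0.207) and 3.11 for *Elane* (SE 0.388), both called in 14 of 14 alternatives. This restates the observation that prompted the split. *Prtn3* (1.43), *Ms4a3* (3.13) and *Ctsg* (1.43) were not called by edgeR, and DESeq2 called 7 members. The DESeq2 share of all genes is not given here either, so that count cannot be read as a result about the members.

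Each genotype alone gave calls under 4000000 counts in heterozygous and knockout mice, over 12872 genes tested. In heterozygous mice 0.0622% of genes were called and 4 of them were members, namely *Mpo* (log2 fold change 1.23), *Elane* (2.57), *Prtn3* (1.77) and *Ctsg* (1.59), each higher in 3 of 3 Ang II libraries than in both PBS libraries. The other 4 genes called were *Ccr2* (3.04), *Hp* (2.96), *F13a1* (2.60) and *C3* (complement C3, 2.53), and *Ms4a3* was not called (2.35). In knockout mice 0.0932% of genes were called and 5 were members, namely *Elane* (2.67), *Mpo* (1.16), *Prtn3* (1.45), *Ms4a3* (3.00) and *Ctsg* (1.505), again in 3 of 3 Ang II libraries. The other 7 genes included *Gda* (guanine deaminase, 3.69), *C3* (2.43), *Ccr2* (2.11) and *F13a1* (2.10). With PBS groups of 2 libraries these counts rested on single libraries: the heterozygous count was 0 without PBS replicate 1 or PBS replicate 2, and the knockout count was 0 without PBS replicate 1, 1 without PBS replicate 2, 3 without Ang II replicate 2 and 2 without Ang II replicate 3. In intact mice edgeR called 0% of genes (306 at an unadjusted p under 0.05), with 0 members at that level and 0 by DESeq2, and the values were −0.17 for *Mpo* and −0.44 for *Elane*.

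The difference between genotypes under the same limit is a description as well. The Ang II effect in knockout minus intact mice called 0.0311% of genes, and 2 of the 4 were members, *Elane* (3.12, SE 0.432) and *Mpo* (1.33, SE 0.232). The others were *Ly6c2* (3.88), which encodes a monocyte surface antigen, and *C3* (3.36). This count was 0 without PBS knockout replicate 1, and 1 without PBS intact replicate 1 or 2, PBS knockout replicate 2, Ang II intact replicate 1 or 2, or Ang II knockout replicate 1, 2 or 3. The effect in knockout minus heterozygous mice called 0% (290 genes at an unadjusted p under 0.05) by edgeR, with 1 member at that level and 0 by DESeq2.

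Under 4000000 counts, intact PBS libraries held 4759 and 5884 CPM of *Mpo* and 94.3 and 210.4 CPM of *Elane*. Both were above the heterozygous and the knockout PBS libraries for each of the 5 primary genes and for *S100a9* and *Ngp*. *S100a8* and *Camp* also had higher CPM in both. Intact PBS replicate 1 lay under the floor of 3 counts for each of them, so they are not shown to be above. Of 12872 genes, 8.85% were above in both intact libraries and 13.9% below. For knockout against intact after PBS, 0.0622% of genes were called, among them *Mpo* (−1.31), *Elane* (−2.27) and *Prtn3* (−1.54), lower in 2 of 2 knockout libraries. For heterozygous against intact, 0.0544% were called, among them *Mpo* (−1.21), *Elane* (−1.96) and *Prtn3* (−1.59), lower in 2 of 2. Other genes called in both comparisons, with the knockout value first, were *Ccr2* (−2.35 and −3.08), *C3* (−2.45 and −2.26), *Csf2rb* (−1.24 and −1.31) and *Gm47283* (−2.09 and −1.62). *Calcrl* (1.42) was called for knockout against intact alone. With all libraries kept, 0 members were called in either comparison. The knockout count was 0 without PBS intact replicate 2 or PBS knockout replicate 1 and 1 without PBS knockout replicate 2, and the heterozygous count was 0 without PBS intact replicate 2 or PBS heterozygous replicate 1 or 2. Knockout against heterozygous after PBS called 0% (305 genes at an unadjusted p under 0.05) by edgeR, with 0 members at that level and 0 by DESeq2. After Ang II, edgeR called 0% for knockout against intact (500 genes, 2 members), 0% for heterozygous against intact (979 genes, 3 members) and 0% for knockout against heterozygous (530 genes, 3 members), and DESeq2 called 0 members in each. These comparisons share their PBS libraries with the Ang II comparisons above, so a low PBS value enters both.

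**Figure D3:**
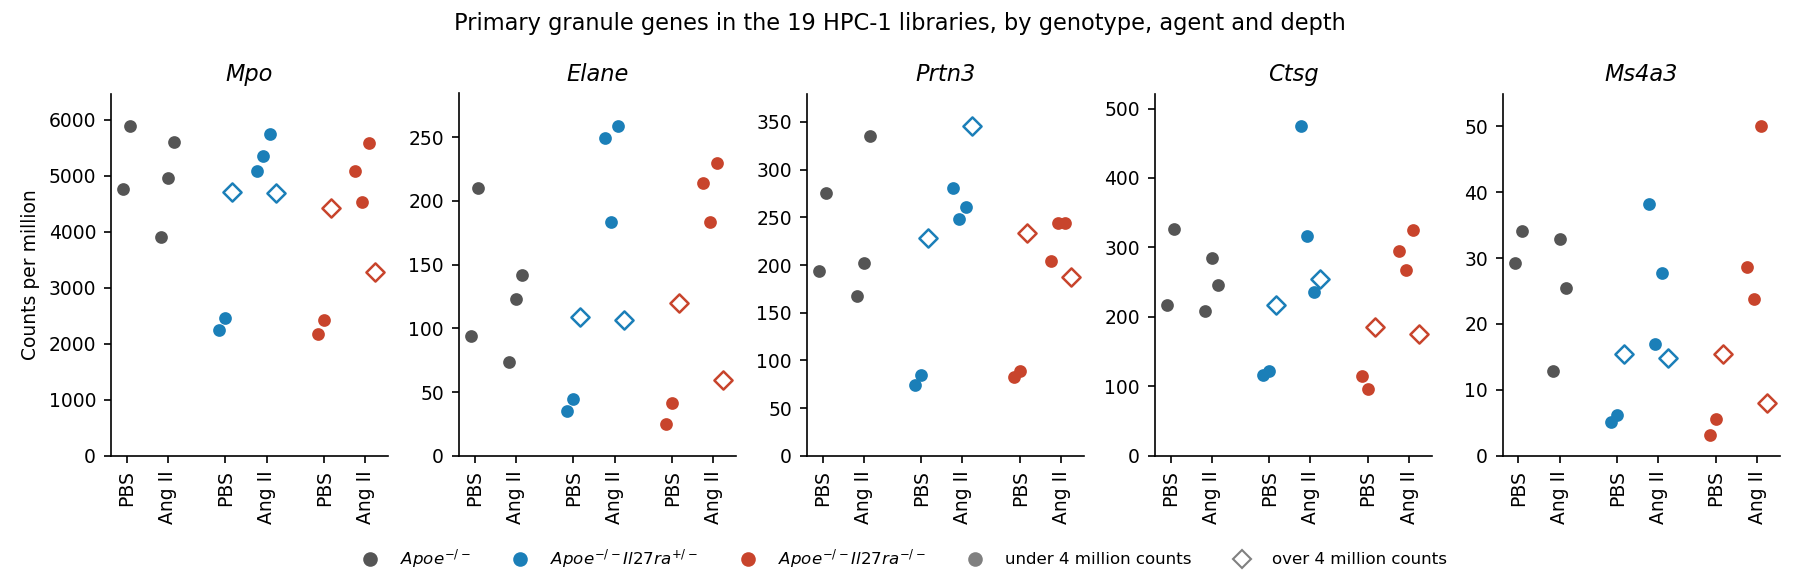
Levels of the 5 primary granule genes in the 19 HPC-1 libraries (CPM, linear axes from 0), by genotype and agent, with 1 point a library and libraries over 4000000 counts marked. Heterozygous and knockout PBS libraries under 4000000 counts lie below all Ang II libraries under 4000000 counts. Those over the limit do not, except PBS knockout replicate 3 for *Ctsg*.

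*F13a1* and *Ccr2*, 2 of the monocyte genes, were called beside the primary genes in the HPC-1 libraries under 4000000 counts, in the same split. Under 4000000 counts, the sum of 10 monocyte and macrophage genes was 132 and 131 CPM in heterozygous and 133 and 141 in knockout PBS libraries, against 657, 508 and 676 and 599, 481 and 443 after Ang II. Over 4000000 counts it was 419 and 407 CPM after PBS and 428 and 319 after Ang II, and in intact mice 386 and 300.1 after PBS and 244, 314 and 398 after Ang II. Its most abundant gene was *F13a1*, at 64.0, 64.4, 57.6 and 79.3 CPM in the low PBS libraries and 236 to 435 in the matching Ang II libraries. *Adgre1*, *C1qa*, *C1qb* and *Cd14*, which mark macrophages and mature monocytes, were at 0 in both heterozygous PBS libraries and in knockout PBS replicate 2. Of 6 monocyte genes tested, these 2 were called for Ang II against PBS in heterozygous and in knockout mice, and the other 4 were not. *C3*, which is made by myeloid and other cells, had the same groups of values, at 8.04, 13.5, 6.61 and 12.9 CPM in the low PBS libraries and 49.97 to 65.3 in the matching Ang II libraries. For Ang II against PBS, edgeR called 0 of 12 granulocyte regulators and 0 of 8 other primary granule genes in both genotypes. Of 13 other late granule genes it called 1 (*Hp*) in heterozygous mice and 0 in knockout mice. The part of monocytes or their precursors in the change of the primary genes was not tested.

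Late genes spread widely within HPC-1 groups. Their sum was 7.83 and 78.4 CPM in intact, 3.57, 1.29 and 2.64 in heterozygous and 0.315, 0.307 and 3.57 in knockout PBS libraries. After Ang II it was 3.70, 26.1 and 89.7 CPM in intact, 19.9, 2.55, 20.7 and 0.633 in heterozygous and 18.4, 57.0, 201 and 0.959 in knockout libraries. Intact PBS replicate 2, intact Ang II replicate 3 and knockout Ang II replicates 2 and 3 were high, and both Ang II libraries over 4000000 counts were under 1 CPM. The primary sum in the highest of them, knockout Ang II replicate 3, was 6444 CPM, inside the range of the other Ang II libraries under 4000000 counts (4375 to 6526).

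Pairs of genes within a class were more alike than pairs between classes over all libraries, and less clearly so within a cell type. Over 36 libraries, Spearman correlations of log2 CPM were 0.901 to 0.956 between pairs of primary genes, 0.667 to 0.802 between pairs of late genes and 0.136 to 0.501 between a primary and a late gene. Without the 3 LT-HSC libraries these ranges were 0.887 to 0.957, 0.598 to 0.748 and 0.147 to 0.544. Within HPC-1 they were 0.628 to 0.881, 0.645 to 0.905 and 0.365 to 0.846, within LT-HSCs 0.462 to 0.847, 0.548 to 0.896 and 0.194 to 0.777, and within LT-HSCs without the 3 they were 0.0117 to 0.697, 0.281 to 0.804 and −0.294 to 0.672. These describe libraries that share a cell type and depth. Outside the members, the genes most like the primary mean were *Anxa3* (0.950), *Gpc1* (0.934), *Ap3s1* (0.931), *Atp8b4* (0.915) and *Milr1* (0.912). Those most like the late mean were *Lcn2* (0.868), *Chil3* (0.762), *Epx* (0.622), *Slc4a1* (0.617) and *Mmp9* (0.608). Without the 3 LT-HSC libraries they were *Anxa3* (0.946), *Gpc1* (0.930), *Hp* (0.929), *Ap3s1* (0.912) and *Igsf6* (0.912) for the primary mean, and *Lcn2* (0.833), *Chil3* (0.711), *Erich1* (0.707), *Snx12* (0.593) and *Mmp9* (0.563) for the late mean. Genes were kept by their mean over all 36 libraries, and *Lcn2*, *Chil3* and *Mmp9* passed that limit of 5 CPM through the 3 libraries, with means of 2.83, 1.203 and 0.952 CPM without them, so the late list describes those libraries in part. Within the 19 HPC-1 libraries, *C3* (0.946), *Igsf6* (0.942) and *Hp* (0.930) were closest to the primary mean and *Lcn2* (0.900, at a mean of 3.97 CPM there) and *Gda* (0.842) to the late mean.

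The members include 2 neighbouring pairs in the GRCm38 genome. *Prtn3* (chr10:79874476-79883174) and *Elane* (chr10:79886247-79888215), both on the forward strand, are 3072 bases apart with 0 coding genes between them, and *Mpo* (chr11:87793581-87804413), *Ctsg* (chr14:56099881-56102574) and *Ms4a3* (chr19:11629496-11640851) lie alone. *S100a8* (chr3:90668978-90670035) and *S100a9* (chr3:90692632-90695721) are 22596 bases apart with 0 coding genes between them. *Camp* (chr9:109847379-109849617), *Ngp* (chr9:110419747-110423012) and *Ltf* (chr9:111019271-111042767) share chromosome 9, with 8 to 29 coding genes between them. *Prtn3* and *Elane*, the neighbouring pair, had different LT-HSC levels, with *Prtn3* in all 14 libraries and *Elane* at 0 in 8 of 14.

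The promoters of the 3 serine protease genes are shown because these genes moved together between cell types while *Prtn3* alone of the 3 was above the floor in every LT-HSC library. Sequences are RefSeq sequences of the GRCm38.p6 build, 10 of 10 members had a promoter, and the 250 bases before each start were searched on both strands for GAGGAA (PU.1), TTGCNNAA (C/EBP), CAACNG (MYB) and TGTGGT (RUNX), which overlapped in 0 places in the promoters shown. GAGGAA was found in 4 of 5 primary genes (*Mpo*, *Elane*, *Prtn3* and *Ctsg*) and 2 of 5 late genes (*S100a8* and *Ltf*), and in 23.3% of 32841 promoters. CAACNG was found in 3 primary genes (*Elane*, *Prtn3* and *Ctsg*) and 1 late gene (*Ngp*), and in 29.3% of promoters. TTGCNNAA was found in 0 primary and 3 late genes (*S100a9*, *Ltf* and *Ngp*), and in 9.57% of promoters, and TGTGGT in *Ctsg* and *S100a9*, and in 14.0%. A match describes letters in a window and not a bound site. The runs below stop before any annotated exon, with matches in capitals: *Elane* on the forward strand (chr10:79886062-79886246), *Prtn3* on the forward strand (chr10:79879417-79879613) and *Ctsg* on the reverse strand (chr14:56102575-56102824), each written 5′ to 3′ on the gene's strand. The CAACNG match of *Elane* falls in annotated exon, and that of *Prtn3* begins in the last 3 bases printed and runs into the exon, so neither is marked.
Elane: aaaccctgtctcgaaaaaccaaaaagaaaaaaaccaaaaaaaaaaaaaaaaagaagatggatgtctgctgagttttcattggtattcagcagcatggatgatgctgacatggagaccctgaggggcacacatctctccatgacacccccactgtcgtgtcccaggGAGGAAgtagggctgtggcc
Prtn3: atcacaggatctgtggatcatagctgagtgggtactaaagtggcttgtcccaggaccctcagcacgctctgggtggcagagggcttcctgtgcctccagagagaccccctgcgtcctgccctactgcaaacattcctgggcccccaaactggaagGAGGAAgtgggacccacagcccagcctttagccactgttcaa
Ctsg: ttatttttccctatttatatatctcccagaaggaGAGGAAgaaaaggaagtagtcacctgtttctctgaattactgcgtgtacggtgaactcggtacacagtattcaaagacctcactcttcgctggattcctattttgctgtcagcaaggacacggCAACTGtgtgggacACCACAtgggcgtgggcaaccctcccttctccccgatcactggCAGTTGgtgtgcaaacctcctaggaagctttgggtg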

How the data were processed

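RNA-seq counts of 36 libraries were read from the table the authors deposited, in which values are expected counts rounded to whole numbers (0 values were not whole). The submitters' processing notes name Bowtie2, RSEM 1.2.31 and DESeq2 on mm10, while the paper names STAR and another RSEM version. CPM are counts per 1000000 of a library's total. Tests used edgeR 4.0.16 (filterByExpr, TMM, robust quasi-likelihood, Benjamini-Hochberg over all genes tested, FDR 5%) in R 4.3.3, fitted to all 12 groups for HPC-1 against LT-HSC and to the 6 groups of a cell type otherwise. Python 3.11.15 with pandas 2.3.3, numpy 2.4.6 and matplotlib 3.10.9 made the tables and plots. Both tests were run on a simulated set of HPC-1 counts, where both made a larger share of false calls than the nominal FDR, DESeq2 more than edgeR. An edgeR standard error above 50 log2 units was taken as no usable error.

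Alternatives were a fit without a filter, DESeq2 1.42.0, scaling by upper quartiles, a mean of at least 10 counts, the groups compared alone, a Y-linked covariate, a replicate block, all 6 conditions, leaving out single replicates (68 fits), leaving out named LT-HSC libraries, and libraries under 4000000 counts. Those on 3 LT-HSC libraries (with edgeR and DESeq2), on cell type alone and on depth within HPC-1 were chosen after seeing the data. The study used gender as a factor, which the labels do not give.

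The text names all 10 members; in each other list, called genes are counted and up to 4 with the largest absolute log2 fold change named, and the 5 genes most like each class were taken from genes with a mean of at least 5 CPM (log2 with a prior count of 2). *C3*, *Gda*, the complete set of surface marker genes of stem and progenitor cells and the markers given for libraries that stood apart were named after their values were seen. The members and lists were chosen with earlier results of these data known.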

Additional observations from a re-analysis of the deposited data

Results flagged for a closer look

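In groups of 4 libraries, the gap between the highest library and the next, as a share of the group's range, passed Dixon's 95% critical value in 15 of 40 gene and group pairs, where chance gives about 1 in 20 groups. The genes of a library are not independent, so these are few events. Ang II knockout LT-HSC replicate 2 was far above the other 3 libraries of its group in 9 of 10 members, with a share of 0.981 for *Mpo*, 0.991 for *Elane*, 0.989 for *Ctsg*, 0.997 for *Ms4a3*, 0.997 for *S100a8*, 0.995 for *S100a9*, 0.998 for *Ltf*, 0.999 for *Camp* and 0.997 for *Ngp*. In heterozygous Ang II LT-HSCs, replicate 2 passed the critical value for *Camp* (0.906) and *Ngp* (0.970), and replicate 1 for *S100a8* (0.830). *Ctsg* in replicate 2 also passed (1.000), but from 1 count. That is under the floor of 3 counts, so it is not shown to be above the others. In HPC-1, Ang II knockout replicate 3 was far above the others for *S100a8* (0.932) and *Ltf* (0.884).

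Differences of effects were called for *Mpo* and *Elane* in HPC-1, between genotypes and between depth classes, in a split that makes them descriptions. Under 4000000 counts, the Ang II effect in knockout minus intact mice was 1.33 for *Mpo* and 3.12 for *Elane* (log2). Over heterozygous and knockout mice, the Ang II effect under minus over 4000000 counts was 1.37 for *Mpo* and 3.11 for *Elane* and restates what prompted the split. The split at that depth was applied within HPC-1 after these libraries had been seen to differ in these genes. With all libraries, knockout minus intact called 0 members (*Mpo* 0.84, unadjusted p = 0.0330), and knockout minus heterozygous called 0 with all libraries and under the limit. For knockout minus intact, *Elane* was called in 14 of 15 alternatives and *Mpo* in 5 of 15, and *Mpo* was lost in 9 of 10 single omissions. Over the limit each group held 1 library. Both rest in part on the same PBS libraries, and depth and the Y-linked class of a library cannot be told apart there.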

How the results depend on the processing

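Between cell types, the 5 primary genes kept their direction and call in 46 of 46 alternatives. The members called numbered 5 to 6 in 45 of them and 8 with cell type as the only term. Late genes turned sign in some: *S100a8* was 0.62 with DESeq2 and 1.85 without the 3 LT-HSC libraries, *Ltf* 0.64 and 1.15, and *Ngp* 0.23 and 1.65; *Camp* was 0.17 without the 3, and *S100a9* 0.87 with cell type alone and without the 3. The causes were not tested. The fit without a filter gave *S100a9* an SE of 0.163 at −3.02, against 1.19 at −3.03 with the filter, so calls of that fit are given as counts alone.

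Where edgeR called 0 members within LT-HSCs, fitting with no filter called 3 (Ang II against PBS, heterozygous), 7 (the same, knockout), 9 (Ang II knockout against intact), 2 (Ang II heterozygous against intact), 8 (Ang II knockout against heterozygous), 9 (PBS knockout against heterozygous) and 5 (Ang II effect, knockout minus heterozygous). Shares of all genes called are given for edgeR with its filter alone. Member counts without a filter or by DESeq2 therefore cannot be read as a result about the members. DESeq2 called 3, 1 and 1 for Ang II knockout against intact, Ang II heterozygous against intact and PBS knockout against heterozygous. It called 0 in each without the 3 libraries, which had been set aside for high levels of these genes. With all libraries it gave no p for the late genes. Within HPC-1, no filter called 1 and 2 for Ang II against PBS in heterozygous and knockout mice, and 2 and 1 for PBS knockout and PBS heterozygous against intact. A replicate block called 1 for Ang II against PBS in heterozygous mice and 1 for PBS knockout against intact, although the labels do not say that replicate numbers pair libraries. Correlations above 0.1 at the same number were seen in 7 of 16 pairs across cell types, 7 of 41 in HPC-1 and 8 of 27 in LT-HSCs. Pairs with different numbers were not set beside them, so pairing is not settled. With libraries under 4000000 counts alone, these counts were 4 and 5 for Ang II against PBS in heterozygous and knockout mice, 3 and 3 for PBS knockout and heterozygous against intact, and 2 for the Ang II effect in knockout minus intact mice. The cause was not tested.

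Counts under 4000000 come from a split applied after these libraries had been seen to differ, and describe them. Of these, the heterozygous count of 4 was 2 with the groups compared alone and 0 to 4 without single replicates, and the knockout count of 5 was 0 to 4 without single replicates. PBS knockout against intact gave 6 with DESeq2, 7 with no filter, 5 with the groups alone and 0 to 3 without single replicates. PBS heterozygous against intact gave 5, 6, 5 and 0 to 3 in the same order. The Ang II effect in knockout minus intact mice gave 6 with DESeq2, 7 with no filter, 1 with a mean of at least 10 counts and 0 to 3 without single replicates. No filter called 1 in each of the 3 Ang II genotype comparisons. The effect under minus over 4000000 counts gave 7 with DESeq2, 7 with no filter and 2 to 4 without single replicates (4 without Ang II heterozygous replicate 3), and Ang II against PBS with both genotypes averaged gave 8, 8 and 5 to 6. The cause was not tested.

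Depth limits the late genes. The medians of *S100a8* and *Camp* lay under the floor in both cell types, and those of *S100a9*, *Ltf* and *Ngp* were at most 3.97 CPM. A floor of 3 counts spans 0.437 to 1.51 CPM. Groups of 1 to 4 libraries leave the within-cell-type comparisons to single libraries, and a fit that leaves 1 library in a group assumes that it varies like the other groups.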

Other observations

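Intestinal epithelium genes were high in 4 libraries, all intact. Their sum was 273 CPM in the PBS LT-HSC library, 322 and 309 CPM in the Ang II LT-HSC libraries and 247 CPM in Ang II HPC-1 replicate 3, against 25.2 to 121 CPM in the other 32. The granule members of those 3 LT-HSC libraries had primary sums of 81.3, 28.1 and 30.3 CPM and late sums of 3.53, 7.57 and 8.18 CPM.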
